A study of Mus musculus with 24 samples.

Results

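The 6 genes described here, S100a8, S100a9, Csf3r, Ngp, Camp and Ltf, are genes known for high expression in neutrophils or their bone marrow precursors. They were followed array by array in mouse lung tumours that carried EGFR mutations and in normal lung. Every probe set annotated to 1 of these genes alone was taken, which gave 1 probe set for each gene, 6 probe sets of 45101 in all, and 6 genes of the 18193 that were tested. No further probe set was shared between a member and another gene. The probe sets were taken by annotation and not by measured value, but the members themselves were chosen with earlier results of these data known.

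Total RNA was hybridised to Affymetrix MOE 430 2.0 arrays, and the deposited values were log2 probe set summaries, so that a difference of 1 is a 2-fold difference. The 24 arrays held 14 tumour nodules that had been macro-dissected by eye and 10 normal lungs. The tumours came from bitransgenic mice on a doxycycline diet for 3 to 6 months. The normal lungs came from littermates on doxycycline that carried no transgene or only 1, so doxycycline was common to all groups.

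The tumour groups were 4 L858R tumours (labelled C/L858R), from mice of the strain label FVB mixed, and 5 L858R+T790M tumours (C/L+T) and 5 T790M tumours (C/T790M), both from FVB mice. L858R activates the EGFR kinase, and T790M lies in the same domain and is known for resistance to kinase inhibitors. The normal groups were 5 lungs of the label FVB mixed, called mixed-strain normals here, and 5 lungs of the label FVB, called FVB normals. The labels shorten the driver transgene to C and give no age, sex, batch or count of animals, and a macro-dissected nodule also holds the vessels, stroma and leukocytes within it. They do not say that the arrays of a group came from separate mice, so the p-values below measure the spread between these samples. In bulk tissue, fewer neutrophils and less RNA per neutrophil cannot be told apart.

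Neutrophils fill their granules in sequence as they mature in the bone marrow: azurophil granules first, then specific granules with Ngp, Camp and Ltf, then gelatinase granules. Granule transcripts are largely shut off before the cells leave the marrow, whereas S100a8, S100a9 and Csf3r stay expressed in circulating neutrophils. S100A8 and S100A9 pair to form calprotectin, a calcium-binding complex that makes up much of the neutrophil cytosol, chelates metal ions and acts on the receptors TLR4 and RAGE. Csf3r encodes the receptor for granulocyte colony-stimulating factor, the main growth factor of the lineage. Ngp encodes neutrophilic granule protein, Camp the antimicrobial cathelicidin, and Ltf the iron-binding protein lactoferrin. Several of these genes are not particular to neutrophils: S100a8 and S100a9 are also expressed in monocytes and in stressed squamous epithelium, and Ltf in glandular epithelium.

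By the RefSeq annotation of GRCm38.p6, S100a8 (probe set 1419394_s_at) lies at chr3:90669071-90670034 and S100a9 (1448756_at) at chr3:90692630-90695721, 22.6 kb apart. Csf3r (1418806_at) lies at chr4:126023441-126044975. Camp (1419691_at, chr9:109847377-109849456), Ngp (1418722_at, chr9:110419808-110423012) and Ltf (1450009_at, chr9:111019292-111042766) lie on 1 stretch of chromosome 9, with 570.4 kb between Camp and Ngp and 596.3 kb between Ngp and Ltf. The suffix of the S100a8 probe set marks probes that may match more than 1 transcript, and cross-hybridisation was not tested.

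Promoter windows are shown for S100a8 and S100a9, whose values moved together most closely, and for Ngp, a granule gene on another chromosome, because the members share transcription factors by textbook account. Each window is the RefSeq sequence (GRCm38.p6) of 250 bases before to 50 after an annotated start site, 5′ to 3′ on the gene's strand. The windows lie at chr3:90668821-90669120, plus strand, at chr3:90695672-90695971, minus strand, and at chr9:110419558-110419857, plus strand. Capitals mark matches to a C/EBP motif (TTNNGNAA, either strand), a PU.1 motif (GAGGAA, read as TTCCTC on the other strand) and a TATA box (TATAAA, forward strand).
S100a8: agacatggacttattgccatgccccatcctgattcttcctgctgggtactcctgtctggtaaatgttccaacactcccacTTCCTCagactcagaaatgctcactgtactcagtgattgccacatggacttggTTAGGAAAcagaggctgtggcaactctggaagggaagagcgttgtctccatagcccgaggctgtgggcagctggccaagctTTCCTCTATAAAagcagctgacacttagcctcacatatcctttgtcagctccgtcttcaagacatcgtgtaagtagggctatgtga
S100a9: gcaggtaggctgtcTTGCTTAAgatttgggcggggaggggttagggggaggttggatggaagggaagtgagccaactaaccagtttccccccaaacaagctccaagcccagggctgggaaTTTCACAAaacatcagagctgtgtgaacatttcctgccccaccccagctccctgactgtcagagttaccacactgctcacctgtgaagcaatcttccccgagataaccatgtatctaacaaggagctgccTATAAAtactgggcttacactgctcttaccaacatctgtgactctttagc
Ngp: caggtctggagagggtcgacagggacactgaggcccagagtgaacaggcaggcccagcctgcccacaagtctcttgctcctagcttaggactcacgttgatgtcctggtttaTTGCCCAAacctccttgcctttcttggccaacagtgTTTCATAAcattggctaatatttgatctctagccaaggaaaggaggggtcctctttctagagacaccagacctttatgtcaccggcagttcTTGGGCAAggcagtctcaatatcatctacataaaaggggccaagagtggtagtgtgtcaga

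Relative to the annotated start site, S100a8 had 1 C/EBP match at -117, PU.1 matches at -170 and -36, and a TATA box at -30 that directly follows the second PU.1 match. S100a9 had C/EBP matches at -236 and -130, no PU.1 match, and TATAAA at the annotated start itself (position 0). Ngp had 3 C/EBP matches, at -138, -102 and -11, and neither of the other motifs. Of the windows not shown, that of Csf3r (chr4:126024409-126024708), which starts inside the annotated span of the gene, held 1 PU.1 match, that of Ltf 2 C/EBP matches and 1 PU.1 match, and that of Camp none. Among all 32851 promoter windows, 40.7% held the C/EBP motif, 28.3% the PU.1 motif and 8.3% the TATA box. Matches of such short motifs are common and describe letters only, not binding.

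The arrays were on a common scale, with medians between 7.21 and 7.34. Alveolar type 2 markers, which define lung epithelium of the distal airspaces, averaged 13.76 to 14.47 in every array. They were not level between groups: 3 of 4 were called higher in each tumour group against its normals. Their mean was at least 13.99 in every tumour and at most 13.90 in every normal lung. The endothelial markers fell in all 3 tumour groups against their normals (5 of 5 in each). In the L858R, L858R+T790M and T790M comparisons 41.4%, 36.2% and 39.8% of all genes were called in either direction. The 3′ minus 5′ signal of the Gapdh control probe sets, a sign of RNA integrity, was between -0.31 and -0.03 in all arrays, with mixed-strain normals at -0.31 to -0.22 and FVB normals at -0.20 to -0.08. For the beta-actin control probe sets it was positive, between 0.37 and 0.65 in all arrays. Its median was 0.53 in L858R tumours, 0.53 in L858R+T790M tumours and 0.61 in T790M tumours. In mixed-strain normals it was 0.45, and in FVB normals 0.52.

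Among the members, S100a8 and S100a9 had the widest spread between arrays of 1 group, except in mixed-strain normals, where Ltf varied most (SD 0.71). S100a8 was at 11.82, 8.46, 7.81 and 7.71 in L858R tumours 1 to 4, against 11.05, 9.81, 10.85, 10.85 and 11.10 in mixed-strain normals 1 to 5. In the FVB label it was at 13.88, 8.99, 9.69, 10.37 and 12.08 in L858R+T790M tumours 1 to 5 and at 10.88, 8.33, 8.91, 7.18 and 9.72 in T790M tumours 1 to 5, against 11.66, 13.97, 10.62, 10.32 and 13.98 in FVB normals 1 to 5. L858R tumour 1 stood above all mixed-strain normals while the other L858R tumours stood below all of them. FVB normals 2 and 5 and L858R+T790M tumour 1 were the highest arrays of the series, and T790M tumour 4 the lowest. From lowest to highest array, S100a8 spanned 6.80 log2 units, a 111-fold range. Only 26 of the 18193 genes had a larger SD among the FVB normals, and 11 had a larger SD among the L858R tumours.

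S100a9 was at 11.36, 6.81, 7.44 and 7.12 in L858R tumours 1 to 4, against 10.45, 9.23, 10.24, 10.24 and 10.59 in mixed-strain normals 1 to 5. It was at 13.16, 7.69, 8.91, 9.88 and 10.56 in L858R+T790M tumours 1 to 5 and at 10.23, 7.29, 8.23, 6.09 and 9.13 in T790M tumours 1 to 5, against 10.99, 13.69, 9.96, 9.74 and 13.79 in FVB normals 1 to 5. FVB normals 5 and 2 and L858R+T790M tumour 1 were again highest and T790M tumour 4 lowest, as for S100a8, while among L858R tumours 2 to 4 the order differed: tumour 2 was the lowest for S100a9 and the highest for S100a8. The range over the series was 7.70 log2 units, or 208-fold.

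Csf3r, the receptor, varied less. Its values were 8.28, 7.86, 7.26 and 7.56 in L858R tumours 1 to 4, against 8.49, 8.20, 8.48, 8.58 and 8.81 in mixed-strain normals 1 to 5. They were 9.25, 7.92, 8.08, 8.01 and 8.60 in L858R+T790M tumours 1 to 5 and 8.55, 7.43, 7.78, 7.69 and 7.58 in T790M tumours 1 to 5, against 8.57, 10.57, 8.37, 8.15 and 10.27 in FVB normals 1 to 5. FVB normals 2 and 5 and L858R+T790M tumour 1 were again the highest arrays, and L858R tumour 1 was the only L858R tumour within the range of the mixed-strain normals.

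**Figure D1:**
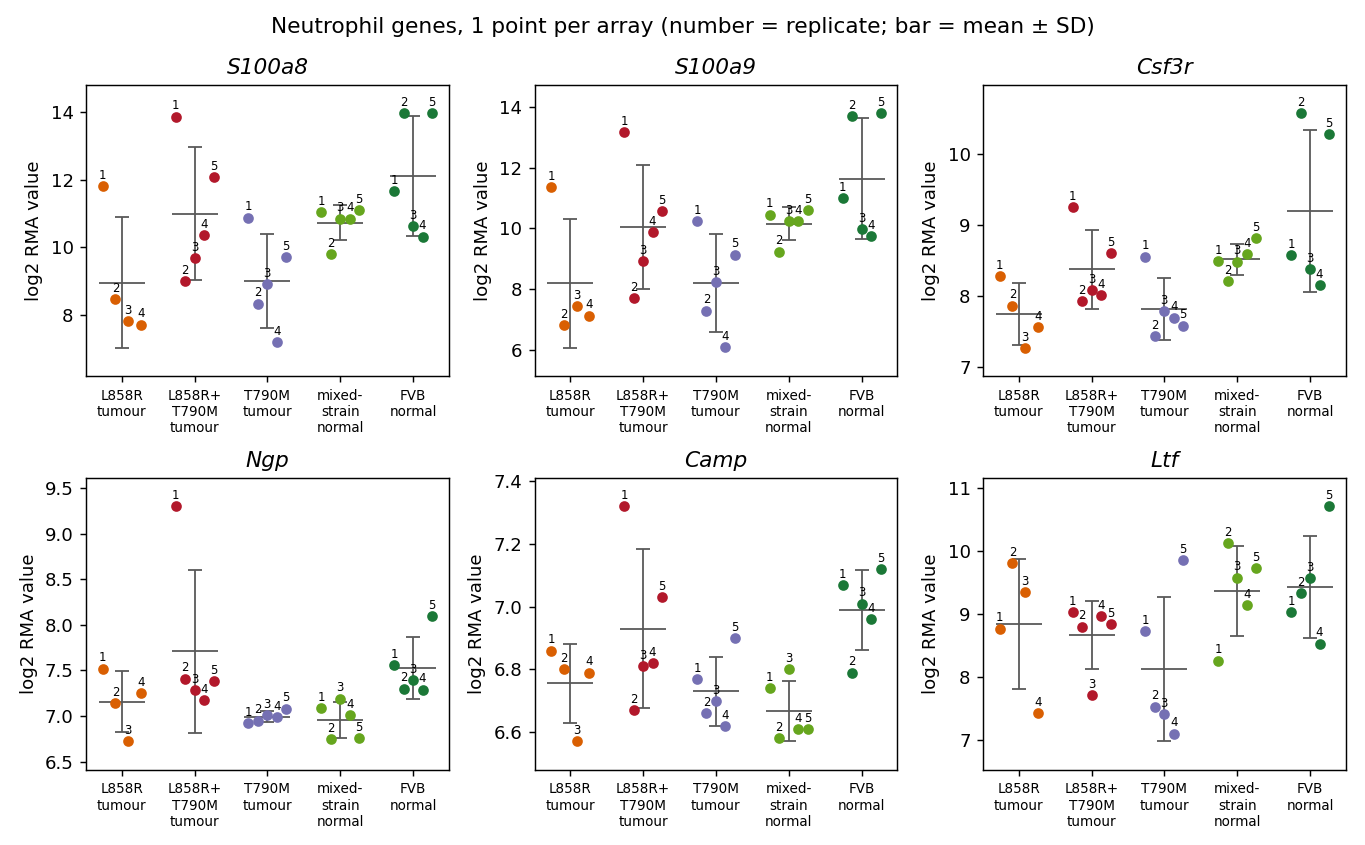
Deposited log2 value of each of the 6 genes in every array, with the groups along the horizontal axis; each point is 1 array and each bar the group mean with its SD. S100a8 and S100a9 spread over 6.80 and 7.70 log2 units, Camp over only 0.75, and FVB normals 2 and 5 stand well above the other FVB normals for S100a8, S100a9 and Csf3r.

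Of the specific granule genes, Ngp was at 7.52, 7.14, 6.72 and 7.25 in L858R tumours 1 to 4, against 7.09, 6.75, 7.19, 7.01 and 6.76 in mixed-strain normals 1 to 5. In the FVB label it was at 9.30, 7.41, 7.28, 7.17 and 7.38 in L858R+T790M tumours 1 to 5 and at 6.92, 6.95, 7.01, 6.99 and 7.08 in T790M tumours 1 to 5, against 7.56, 7.30, 7.39, 7.29 and 8.10 in FVB normals 1 to 5. L858R+T790M tumour 1 was far above every other array. The T790M tumours lay within 0.16 of each other, below all 5 FVB normals and below all 5 L858R+T790M tumours. Ngp was itself rather dim: its mean over all arrays was 7.27, and only 36.1% of genes had a lower mean. Whether its low values lay above background is not known, which limits what the small differences given below for Ngp can show.

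Camp was at 6.86, 6.80, 6.57 and 6.79 in L858R tumours 1 to 4, against 6.74, 6.58, 6.80, 6.61 and 6.61 in mixed-strain normals 1 to 5. Its values were 7.32, 6.67, 6.81, 6.82 and 7.03 in L858R+T790M tumours 1 to 5 and 6.77, 6.66, 6.70, 6.62 and 6.90 in T790M tumours 1 to 5, against 7.07, 6.79, 7.01, 6.96 and 7.12 in FVB normals 1 to 5. All 24 arrays lay within 0.75 log2 units, with L858R+T790M tumour 1 highest. Camp was among the 6064 dimmest genes by mean value, and the deposited table used here gives no call of whether a probe set was above background.

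Ltf was at 8.77, 9.81, 9.35 and 7.43 in L858R tumours 1 to 4, against 8.26, 10.13, 9.58, 9.14 and 9.73 in mixed-strain normals 1 to 5. It was at 9.03, 8.80, 7.71, 8.97 and 8.84 in L858R+T790M tumours 1 to 5 and at 8.73, 7.53, 7.41, 7.10 and 9.86 in T790M tumours 1 to 5, against 9.03, 9.33, 9.57, 8.53 and 10.71 in FVB normals 1 to 5. Its high and low arrays were partly other arrays than those of S100a8: L858R tumour 2 was the highest L858R tumour, and L858R+T790M tumour 1 did not stand apart.

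As group means, S100a8 stood at 8.95 ± 1.94 in L858R tumours (SD, n = 4), 11 ± 1.98 in L858R+T790M tumours, 9.0 ± 1.40 in T790M tumours, 10.73 ± 0.53 in mixed-strain normals and 12.11 ± 1.77 in FVB normals (SD, n = 5 each). Ordered by mean, neighbouring groups were closer than the SD of the more variable group, except that T790M tumours lay below mixed-strain normals by more than either SD, a pair that was not compared because the strain labels differ. S100a9 had the means 8.18 ± 2.13, 10.04 ± 2.05, 8.19 ± 1.60, 10.15 ± 0.54 and 11.63 ± 1.98 in L858R, L858R+T790M and T790M tumours and in mixed-strain and FVB normals. Csf3r had the means 7.74 ± 0.44, 8.37 ± 0.56, 7.81 ± 0.44, 8.51 ± 0.22 and 9.19 ± 1.14 in the same groups. For Ngp they were 7.16 ± 0.33, 7.71 ± 0.89, 6.99 ± 0.06, 6.96 ± 0.20 and 7.53 ± 0.34, for Camp 6.76 ± 0.13, 6.93 ± 0.25, 6.73 ± 0.11, 6.67 ± 0.10 and 6.99 ± 0.13, and for Ltf 8.84 ± 1.03, 8.67 ± 0.54, 8.13 ± 1.15, 9.37 ± 0.71 and 9.43 ± 0.81.

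T790M tumours against FVB normals was the comparison in which the members passed the test. S100a8 fell by 3.11 ± 0.95 on the log2 scale (SE; 8.61-fold lower; limma adjusted p = 0.0116), S100a9 by 3.44 ± 1.03 (10.9-fold; 0.0105) and Csf3r by 1.38 ± 0.39 (2.60-fold; 0.00649). Camp fell by 0.26 ± 0.10 (adjusted p = 0.0389) and Ltf by 1.31 ± 0.52 (0.0478) in the same fit, while Ngp, with a difference of -0.54 ± 0.28, did not pass (0.134). In all, 5 of 6 members were called lower at an adjusted p under 0.05 over all 18193 genes, where 17.9% of genes were called lower and 39.8% in either direction. The median log2 difference of the 6 members was -1.34, against 0.00 over all genes.

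The calls of S100a8, S100a9, Csf3r and Ltf came with smaller differences once a pair of normal lungs was left out. Without FVB normals 2 and 5, a choice made after their values were seen, 0 of 6 members were called by limma: the difference was -1.86 for S100a8 (adjusted p = 0.172), -2.04 for S100a9 (0.166), -0.56 for Csf3r (0.146), -0.28 for Camp (0.0617) and -0.92 for Ltf (0.251). The Camp difference did not shrink, since FVB normal 2 was the lowest FVB normal for Camp, and its adjusted p was computed from 2 fewer arrays. The share of all genes called in this smaller fit is not given here. A loss of calls particular to the members therefore cannot be told from a general loss. When single arrays were left out in turn, S100a8, S100a9 and Csf3r were called in all 24 fits, Camp in 17 and Ltf in 8. The order of the members by test also depended on the test. Ngp was the only member with no overlap between the arrays of both groups, 6.92 to 7.08 in T790M tumours against 7.29 to 8.10 in FVB normals, as was so for 29.8% of all genes. Its exact permutation p, two-sided and unadjusted, was 0.00794, the smallest that 5 against 5 arrays allow. The same exact test gave 0.0238 for S100a8, S100a9 and Csf3r, 0.0159 for Camp and 0.0794 for Ltf. The limma fit shares 1 spread per gene over all groups, and without L858R+T790M tumour 1, which is in neither group, Ngp was called lower as well (adjusted p = 0.00511).

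L858R tumours against mixed-strain normals gave no call: 0 of 6 members passed, where 41.4% of genes passed in either direction, and 0 had an unadjusted p under 0.05 in limma. The arrays of all 6 members overlapped between the groups, where 35.8% of genes did not overlap. S100a8 differed by -1.78 ± 1.00 (95% interval -3.86 to 0.30; adjusted p = 0.164), S100a9 by -1.97 ± 1.09 (0.158) and Csf3r by -0.77 ± 0.41 (0.138), and an exact permutation test gave an unadjusted p of 0.0317 for Csf3r and 0.0952 for the S100 pair. Ngp (0.20 ± 0.30), Camp (0.09 ± 0.10) and Ltf (-0.53 ± 0.55) differed by less than or about 1 SE. The outcome for the S100 pair depended on 1 tumour and on the choice of normals. Without L858R tumour 1, S100a8 differed by -2.74 (limma adjusted p = 0.0305) and S100a9 by -3.03 (0.0278), and both were called lower. With that tumour kept, both were also called when all 10 normal lungs were taken as 1 group, which joins both strain labels.

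Between L858R+T790M tumours and FVB normals, 0 of 6 members passed in limma, where 36.2% of genes did, and 1 member, Csf3r, had an unadjusted p under 0.05. S100a8 differed by -1.11 ± 0.95 (95% interval -3.07 to 0.85; adjusted p = 0.396), S100a9 by -1.59 ± 1.03 (0.247), Csf3r by -0.81 ± 0.39 (0.107) and Ltf by -0.76 ± 0.52 (0.270). Ngp (0.18 ± 0.28) and Camp (-0.06 ± 0.10) were within 1 SE of no difference. Without FVB normals 2 and 5 the S100a8 difference was 0.14 and that of Csf3r 0.01. Csf3r was called lower when FVB normal 4 was left out (-1.07; limma adjusted p = 0.0353) and when L858R+T790M tumour 1 was (-1.03; 0.0482). The arrays of all 6 members overlapped, against 29.8% of genes without overlap. T790M and L858R+T790M tumours were set against the same 5 FVB normals, so these comparisons are not independent of each other.

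**Figure D2:**
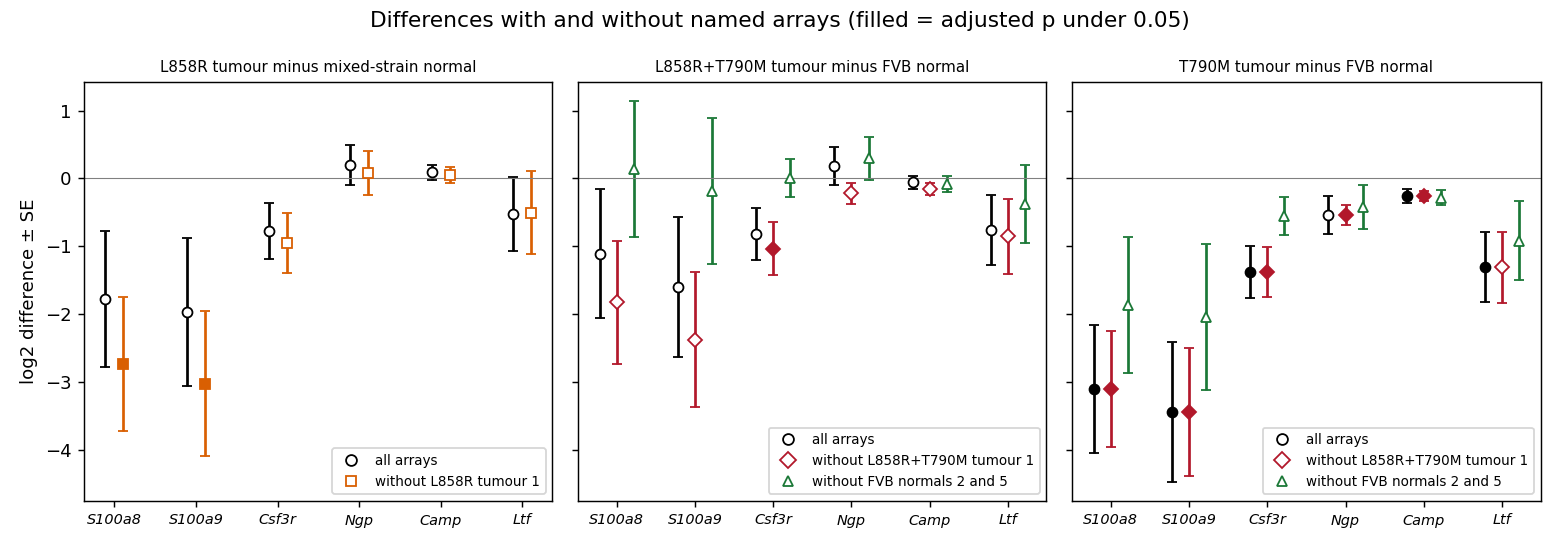
Log2 difference of each gene (vertical axis) between each tumour group and its normal lungs, 1 panel per tumour group, as points with their SE, for all arrays and with L858R tumour 1, L858R+T790M tumour 1 or FVB normals 2 and 5 left out; filled points passed an adjusted p under 0.05 in limma. Without FVB normals 2 and 5 the T790M differences of S100a8 and S100a9 shrink to -1.86 and -2.04 and the L858R+T790M difference of S100a8 moves to 0.14.

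The tumour groups of the FVB label were also compared directly. L858R+T790M tumours were higher than T790M tumours in point estimate for all 6 members, by 2.00 ± 0.95 for S100a8 (limma adjusted p = 0.281), 1.85 ± 1.03 for S100a9 (0.375), 0.72 ± 0.28 for Ngp (0.185), 0.57 ± 0.39 for Csf3r (0.486), 0.54 ± 0.52 for Ltf (0.643) and 0.20 ± 0.10 for Camp (0.303). None of the 6 passed, where 1.59% of genes did; S100a8 and Ngp had an unadjusted p under 0.05. Ngp was again the member without overlap, 7.17 to 9.30 in L858R+T790M tumours against 6.92 to 7.08 in T790M tumours, as for 2.26% of genes, with an exact permutation p of 0.00794 (unadjusted, the smallest possible).

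L858R tumours were compared with the other tumours after each group's own normals had been subtracted. Against L858R+T790M tumours 0 of 6 members passed (0.0715% of genes did) and 0 had an unadjusted p under 0.05, with the S100a8 difference at -0.67 ± 1.38 (95% interval -3.53 to 2.18). Against T790M tumours 0 of 6 passed (0.418% of genes did). There S100a8 differed by 1.32 ± 1.38, Ngp by 0.74 ± 0.41 and Camp by 0.35 ± 0.14, of which Camp alone had an unadjusted limma p under 0.05 (0.0239; adjusted 0.260). The intervals for S100a8 are wide enough to hold a several-fold difference in either direction.

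Mixed-strain normals were also compared with FVB normals, and no member was called. S100a8 differed by -1.38 ± 0.95 (limma adjusted p = 0.524), S100a9 by -1.48 ± 1.03 (0.531), Csf3r by -0.67 ± 0.39 (0.419), Ngp by -0.57 ± 0.28 (0.336), Camp by -0.32 ± 0.10 (0.106) and Ltf by -0.07 ± 0.52 (0.976). Of all genes 1.04% passed, and among the members only Camp had an unadjusted p under 0.05. Ngp did not overlap, 6.75 to 7.19 in mixed-strain normals against 7.29 to 8.10 in FVB normals, as for 10.4% of genes, and its exact permutation p was 0.00794, beside 0.0159 for Camp (unadjusted). Without FVB normals 2 and 5 the Csf3r difference was 0.15. Of the genes of the neutrophil lists, Trem1 (-0.67 ± 0.16) and Cxcl1 (-0.36 ± 0.09) were lower in mixed-strain normals (limma adjusted p = 0.0445 each). Neither call was stable. The Trem1 call was lost when any single mixed-strain normal was left out. It was also lost without FVB normal 1, 2, 4 or 5, L858R+T790M tumour 4 or T790M tumour 3 or 5. The Cxcl1 call was lost when any single FVB normal was left out. It was also lost without mixed-strain normal 1, 2, 4 or 5, L858R+T790M tumour 4 or T790M tumour 5.

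The members moved together array by array to different degrees. With each group's mean subtracted, S100a8 and S100a9 had a Pearson r of 0.983 and a Spearman rho of 0.973 over the 24 arrays (permutation within groups, p = 1e-05 each, the smallest that the resamples allow; adjusted 0.00015 over 15 pairs), and r was 0.972 without the 2 arrays farthest from the median of S100a8. S100a8 and Csf3r had an r of 0.845 and a rho of 0.818 (permutation p = 2e-05, adjusted 0.00015), and 0.844 without those arrays. Ngp and Camp had an r of 0.804 and a rho of 0.747 (adjusted permutation p = 0.00045 for r), and 0.659 without FVB normal 5 and L858R+T790M tumour 1. All arrays share 1 normalization, and the members were grouped by name as genes of 1 cell type, so a shared course is a description of these arrays.

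Links between the S100 pair and the granule genes were weaker and leaned on few arrays. S100a8 and Ngp had an r of 0.604 and a rho of 0.493 (permutation p = 0.00891, adjusted 0.0267, for r), and 0.385 without L858R tumour 1 and L858R+T790M tumour 1. S100a8 and Camp had an r of 0.602 and a rho of 0.618 (adjusted permutation p = 0.0268 for r), and 0.435 without the same arrays. Ltf had no correlation with any member that passed adjustment: r was 0.383 with S100a8 (rho 0.408; adjusted permutation p = 0.142) and 0.136 with Ngp (rho -0.017; 0.407).

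**Figure D3:**
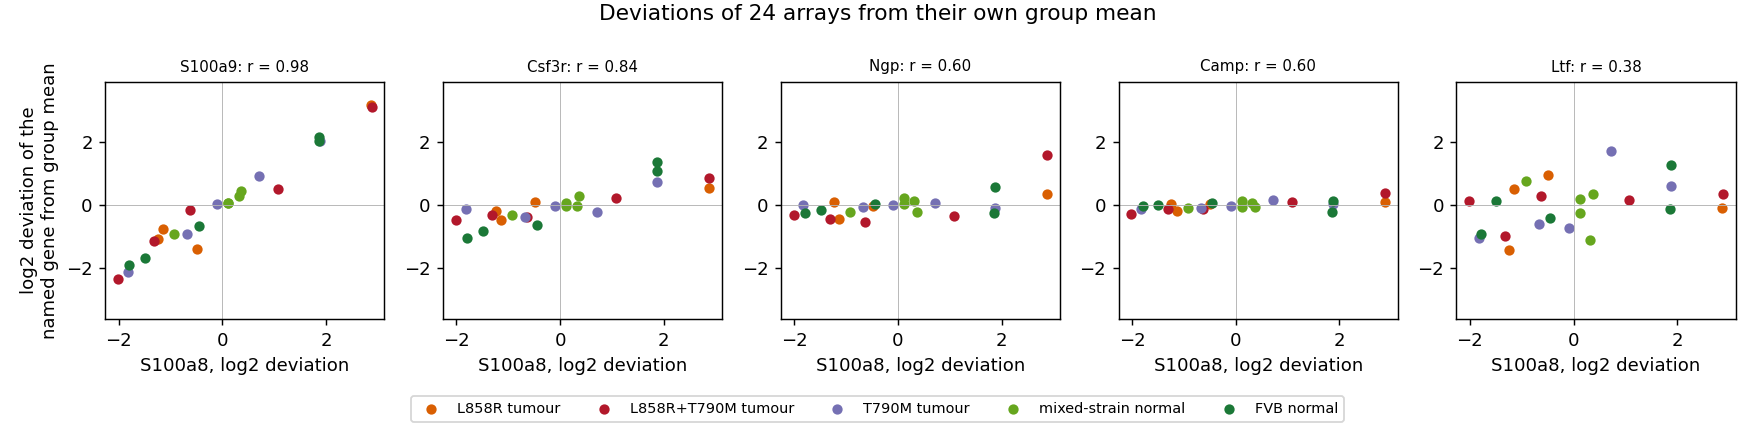
Log2 value of each other member (vertical axis) against that of S100a8 (horizontal axis) over the 24 arrays, each with its group's mean subtracted; points are arrays and colours are groups. S100a9 lies close to a line (r = 0.983) and Csf3r less so (r = 0.845), whereas Ltf is scattered (r = 0.383).

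The 8 other genes whose course was most like that of S100a8 and S100a9 were sought among 11686 brighter genes by mean Pearson r with the pair over the 24 arrays after group means were subtracted. They were Ifitm6 (mean r 0.963), an interferon-induced transmembrane family member, Il1b (0.870), which encodes interleukin-1 beta, Lst1 (0.869), a leukocyte transcript, Ppp1r3d (0.856), a regulatory subunit of protein phosphatase 1, Trem1 (0.851), a receptor that amplifies inflammatory signals on myeloid cells, Slfn4 (0.841), a myeloid Schlafen gene, Mmp8 (0.839), the neutrophil collagenase, and Clec4d (0.835), a C-type lectin receptor of myeloid cells. Il1b was at 10.53 and 10.70 in FVB normals 2 and 5 and at 8.34 to 8.81 in the other FVB normals. Clec4d was at 10.21 and 9.55 in FVB normals 2 and 5 and at 10.24 and 10.52 in L858R+T790M tumours 1 and 5, with every other array at or below 8.35. Being picked for their likeness, these genes carry no test.

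The genes most like Ngp, Camp and Ltf followed them less closely. They were Ccdc51 (mean r 0.591), on chromosome 9 as are the 3 members, Zbtb18 (0.573), an immunoglobulin kappa variable gene (0.572), Abcc1 (0.565), Tnfrsf1b (0.563), Ifitm6 (0.554), Arrb2 (0.553) and Tec (0.549). Ifitm6 appeared in both sets, with an r of 0.972 with S100a8, 0.866 with Csf3r and 0.647 with Ngp.

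**Figure D4:**
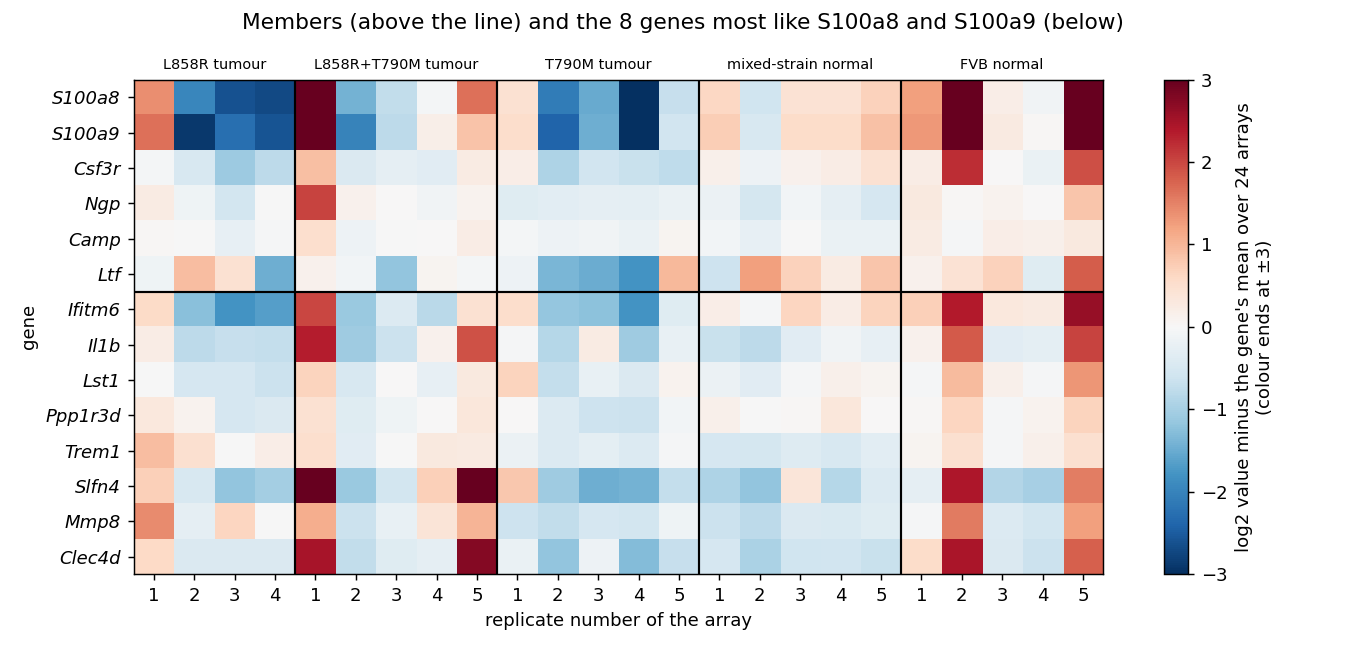
Colour map of the 6 members and the 8 genes most like S100a8 and S100a9 (rows) in the 24 arrays (columns, by group and replicate number); colour is the log2 value minus the gene's mean over the 24 arrays, red above and blue below it, ending at 3 either way. L858R+T790M tumour 1 and FVB normals 2 and 5 are red for S100a8, S100a9 and Csf3r and for Ifitm6, Il1b and Clec4d, and T790M tumour 4 is blue for S100a8 and S100a9.

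Other neutrophil genes were read from 8 lists of known roles. For scale, 41.4%, 36.2% and 39.8% of all genes were called in either direction in L858R, L858R+T790M and T790M tumours against their normals. A list count near these shares does not set the list apart from other genes. Azurophil granule genes, which precede the specific granules, were dim: their mean was 6.29 to 6.77 per array in every group, beside 6.57 to 7.32 for Camp, and small differences at this level do not show stable expression. Of 5 (Mpo, Elane, Prtn3, Ctsg, Ms4a3), Prtn3, which encodes proteinase 3, fell by 0.25 ± 0.09 in L858R tumours and by 0.22 ± 0.08 in T790M tumours (limma adjusted p = 0.0220 and 0.0312), and 0 of 5 passed in L858R+T790M tumours. The Prtn3 call was lost without L858R tumour 2 or mixed-strain normal 1 or 3 in L858R tumours, and without FVB normal 2, 3 or 5 or T790M tumour 4 in T790M tumours, where 2 of 5 fell without L858R tumour 1. The median log2 difference of the 5 was -0.05, -0.05 and -0.16 in L858R, L858R+T790M and T790M tumours, beside medians of 0.05, 0.03 and 0.00 over all genes.

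The other specific and gelatinase granule genes split. Of 9, 3 rose and 2 fell in L858R tumours, 3 rose and 0 fell in L858R+T790M tumours, and 4 rose and 2 fell in T790M tumours. When single arrays were left out, the L858R counts ranged from 1 to 4 higher and 0 to 2 lower: 1 rose without L858R tumour 3 or 4 or mixed-strain normal 1 or 2, 0 fell without L858R tumour 3 or 4 or mixed-strain normal 3, and 1 fell without mixed-strain normal 1 or 5. In L858R+T790M tumours 1 fell without FVB normal 3 or 4, L858R+T790M tumour 1 or 5 or T790M tumour 4. Lcn2, which encodes the iron-siderophore binding lipocalin 2, rose by 2.75 ± 0.23, 3.25 ± 0.22 and 2.88 ± 0.22 in these groups, with all 14 tumours at 12.77 to 13.77 and all 10 normals at 9.80 to 11.32. Pglyrp1, a peptidoglycan recognition protein, rose by 1.11 ± 0.40, 1.56 ± 0.38 and 2.07 ± 0.38. Cd177, a neutrophil surface protein, rose by 3.44 ± 0.87 in L858R+T790M and 3.52 ± 0.87 in T790M tumours (adjusted p = 0.00353 and 0.00268 in limma). Its highest tumours, at 12.20 in L858R+T790M tumour 2 and 12.58 in T790M tumour 4, were the lowest of their groups for S100a8. Hp, which encodes haptoglobin, fell by 1.37 ± 0.49 in L858R and 1.47 ± 0.46 in T790M tumours, and Mmp9, the gelatinase of the last granules, by 0.64 ± 0.24 and 0.79 ± 0.22. Lcn2, Cd177 and Hp are known to be expressed in epithelium as well, and the part of epithelial cells in these values was not tested.

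Mature neutrophil surface and cytosol genes had 11 of 18 entries with a probe set annotated to the gene alone. In T790M tumours 4 of the 11 fell: Ifitm6 by 2.06 ± 0.59, Cxcr2, the receptor for CXC chemokines, by 1.07 ± 0.28, Trem3 by 0.83 ± 0.24 and Trem1 by 0.50 ± 0.16. Hdc, which encodes the histamine-forming enzyme, rose by 1.63 ± 0.47. Without FVB normals 2 and 5, 1 of the 11 fell and 1 rose. In L858R tumours Trem1 rose by 0.83 ± 0.17 and Fpr2, a formyl peptide receptor, by 1.26 ± 0.45, and 0 fell. Only Cxcr2 was called in L858R+T790M tumours, where it fell by 0.77 ± 0.28. Without single arrays the counts ranged from 1 to 2 higher and 0 to 1 lower in L858R tumours (1 rose without L858R tumour 1 or 4 or mixed-strain normal 1 or 4, and 1 fell without L858R tumour 1). They ranged from 0 to 2 in each direction in L858R+T790M tumours. There 2 rose without L858R+T790M tumour 2 and 1 without FVB normal 2, L858R+T790M tumour 3 or 5 or T790M tumour 2, while 0 fell without FVB normal 2 or 5 or L858R+T790M tumour 2, 3 or 4 and 2 without L858R+T790M tumour 1. The mean over the 11 genes ran from 7.20 to 7.96 in L858R tumours and from 7.12 to 7.35 in mixed-strain normals, and it ran from 7.33 to 9.25 in L858R+T790M tumours, from 7.04 to 7.53 in T790M tumours and from 7.33 to 8.54 in FVB normals. Stfa3, a stefin of a family of near-identical copies whose probes may not tell them apart, was at 9.60 in L858R+T790M tumour 1 and at most 5.28 in any other array.

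Subunits of the NADPH oxidase, which makes the respiratory burst of phagocytes, rose in 3 of 5 in L858R tumours (Cybb by 1.40 ± 0.45, Cyba by 0.71 ± 0.16, Ncf1 by 0.74 ± 0.23), in 1 of 5 in L858R+T790M tumours (Cyba by 0.51 ± 0.15) and in 0 of 5 in T790M tumours, with 0 falling in each. Without L858R+T790M tumour 2, 3 of 5 rose in L858R+T790M tumours, and 1 of 5 rose in T790M tumours without that array, L858R+T790M tumour 5 or T790M tumour 2. Of 5 granulocyte transcription factors, Cebpa, which encodes C/EBP alpha, rose in each tumour group, by 1.56 ± 0.14 in L858R, 1.71 ± 0.13 in L858R+T790M and 1.76 ± 0.13 in T790M tumours. It is also expressed in alveolar type 2 cells. Spi1, which encodes PU.1, rose by 0.93 ± 0.28 in L858R tumours; it was not called in the other tumour groups.

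Genes for neutrophil attractants and growth factors rose or did not pass, and 0 of 11 fell in any tumour group. Cxcl3, a ligand of Cxcr2, rose by 3.07 ± 0.59 in L858R tumours, 3.98 ± 0.55 in L858R+T790M tumours and 3.12 ± 0.55 in T790M tumours, with all tumours at 5.51 to 10.13 and all normals at 3.34 to 4.29. Csf2, the granulocyte-macrophage growth factor, rose by 1.28 ± 0.17, 1.14 ± 0.16 and 0.87 ± 0.16. The count that rose was 3 of 11 in L858R tumours, 6 of 11 in L858R+T790M tumours (with Cxcl1, Cxcl2, Cxcl15 and Il1a) and 3 of 11 in T790M tumours. Cxcl2 was at 10.26 and 10.78 in L858R+T790M tumours 1 and 5 and at most 7.06 in every other array. Csf3, the ligand of Csf3r, was at 7.68 to 8.10 in L858R tumours, 7.83 to 8.09 in L858R+T790M tumours, 7.64 to 8.18 in T790M tumours, 7.66 to 7.94 in mixed-strain normals and 7.85 to 8.03 in FVB normals, and was not called.

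**Figure D5:**
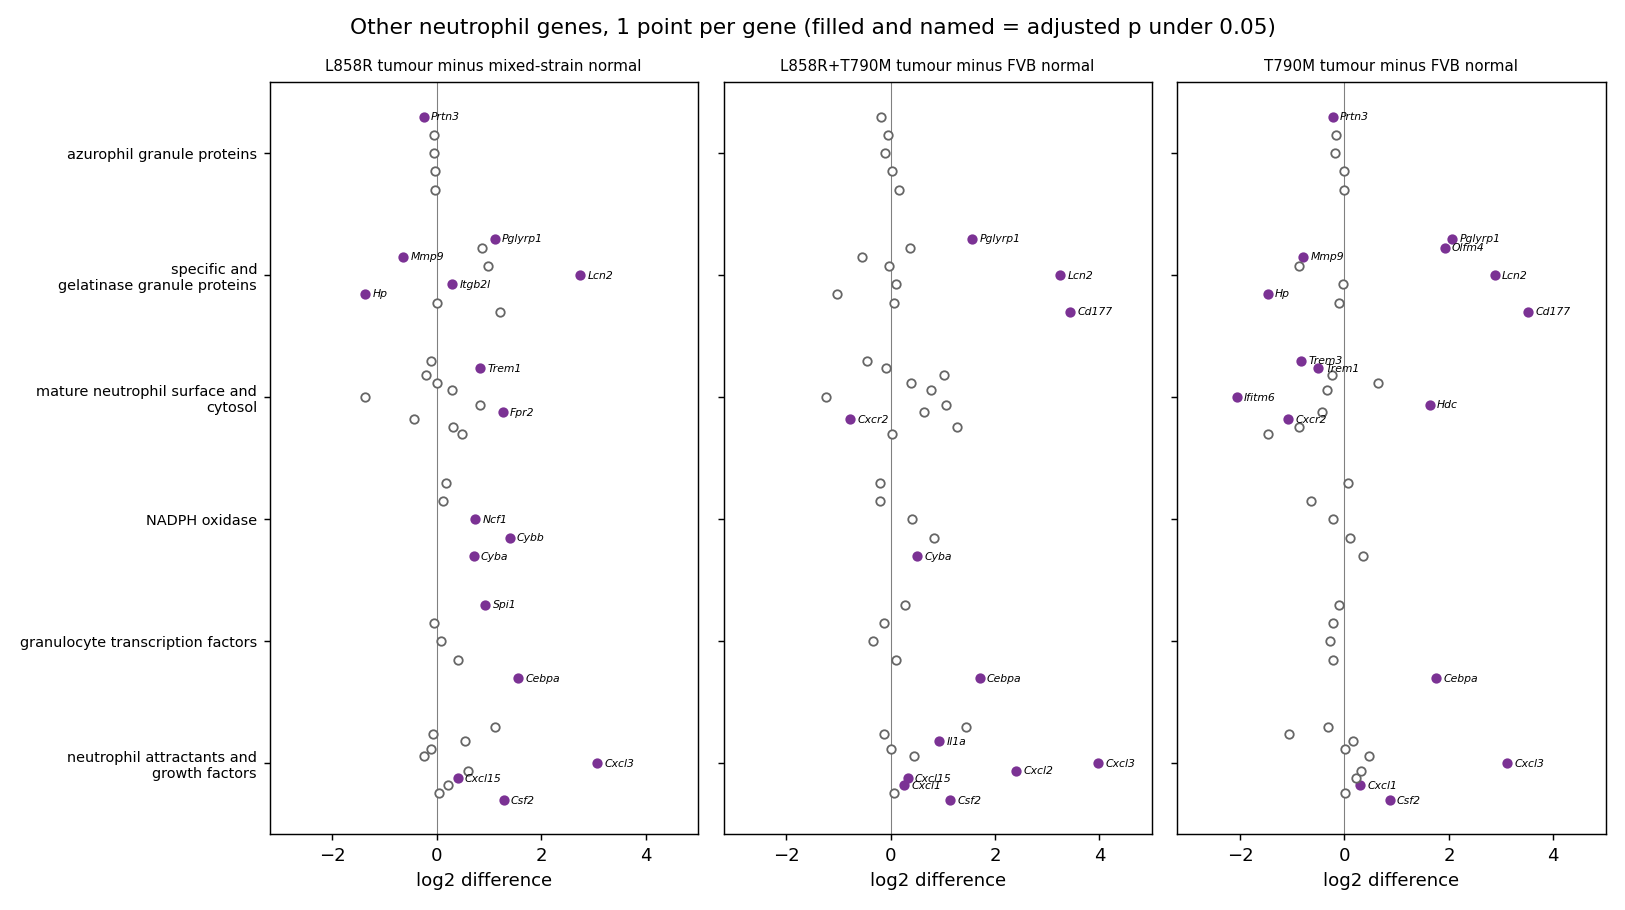
Log2 difference between each tumour group and its normal lungs for the genes of 6 neutrophil lists, 1 panel per tumour group and 1 row per list; filled points passed an adjusted p under 0.05 in limma. Lcn2 (2.75 to 3.25) and Cxcl3 (3.07 to 3.98) stand on the right in all 3 panels, and the azurophil genes stay within 0.26 of no difference.

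Receptors of S100A8, S100A9 and the cathelicidin peptide moved apart. Tlr4 rose in each tumour group, by 1.14 ± 0.15 in L858R, 0.86 ± 0.14 in L858R+T790M and 0.73 ± 0.14 in T790M tumours, and so did Bsg, which encodes basigin, by 0.71 ± 0.10, 0.88 ± 0.09 and 0.62 ± 0.09. Ager, which encodes RAGE and is abundant in alveolar type 1 cells, fell by 0.36 ± 0.12 in L858R and 0.51 ± 0.11 in T790M tumours. In L858R tumours the Ager call was lost without L858R tumour 2 or 4. Cd36 was also called lower in T790M tumours, with the largest fall of the listed receptors there (log2 difference -0.64). Of 9 other S100 genes, S100a14, an epithelial member, rose by 2.36 ± 0.56, 3.24 ± 0.53 and 1.77 ± 0.53 and S100a1 by 0.50 ± 0.12, 0.68 ± 0.12 and 0.35 ± 0.12, while S100a16 fell by 0.68 ± 0.14 in L858R and 0.85 ± 0.13 in T790M tumours. S100a10, the partner of annexin A2, fell by 0.35 ± 0.12 in L858R+T790M and 0.85 ± 0.12 in T790M tumours (limma adjusted p = 0.0303 and 1.5e-05), and S100a13 by 0.35 ± 0.13 in L858R and 0.57 ± 0.12 in T790M tumours. The S100 counts were 2 higher and 2 lower in L858R, 2 higher and 1 lower in L858R+T790M and 2 higher and 3 lower in T790M tumours. In L858R tumours 1 fell without L858R tumour 2 or 3 or mixed-strain normal 2, 4 or 5. In L858R+T790M tumours the S100a10 call was lost without FVB normal 1 or 2 or L858R+T790M tumour 2 or 4. In T790M tumours 1 rose without FVB normal 2 or T790M tumour 2 or 3. Between L858R+T790M and T790M tumours, S100a10 and S100a16 were higher by 0.50 ± 0.12 and 0.57 ± 0.13 (limma adjusted p = 0.0404 and 0.0311), the only genes of the neutrophil lists called there. In that comparison 0 of the S100 genes were called without L858R+T790M tumour 1 or 5 or T790M tumour 5, and 5 without T790M tumour 2. Only 1 was called without L858R+T790M tumour 3, T790M tumour 1, 3 or 4, FVB normal 2, 3 or 4 or mixed-strain normal 2, 3 or 4.

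Markers of other cells were read in the same comparisons, and their part in the members' values was not tested. The counts here and below stand beside 41.4%, 36.2% and 39.8% of all genes called in either direction in L858R, L858R+T790M and T790M tumours. Counts near these shares do not set a cell type apart from other genes. Monocyte markers fell in 3 of 6 in L858R tumours (1 rose), in 1 of 6 in L858R+T790M tumours (1 rose) and in 2 of 6 in T790M tumours. Without single arrays 0 to 3 of them fell in T790M tumours, with 0 without FVB normal 2 or 5 or T790M tumour 2 or 4 and 1 without FVB normal 3 or T790M tumour 3 or 5. In L858R+T790M tumours 1 to 3 fell, with 3 without L858R+T790M tumour 5 and 2 without L858R+T790M tumour 1 or T790M tumour 1 or 2, and 0 rose without FVB normal 1, 3 or 4 or L858R+T790M tumour 1, 4 or 5. Lymphocyte markers fell in 4 of 5 in each tumour group. Pan-leukocyte markers fell in 2 of 5 in L858R+T790M and in T790M tumours, Ptprc (CD45) by 1.04 ± 0.35 and 1.06 ± 0.35, and rose in 2 of 5 in L858R tumours. The pan-leukocyte count that fell was 1 of 5 without FVB normal 5 in both groups, without FVB normal 2 or L858R+T790M tumour 2 in L858R+T790M tumours, and without T790M tumour 2 or 4 in T790M tumours. Of 9 alveolar macrophage markers, 0 rose and 3 fell in T790M tumours (Car4 by 1.28 ± 0.28, Krt79 by 1.71 ± 0.39 and Cidec by 1.29 ± 0.22). In L858R+T790M tumours 1 rose, Marco by 3.65 ± 0.52, and 2 fell, Car4 and Cidec; 3 rose without L858R+T790M tumour 2, and 2 without L858R tumour 2 or 3, L858R+T790M tumour 3, mixed-strain normal 3 or T790M tumour 1, 2 or 5. In L858R tumours 5 rose, Marco by 3.42 ± 0.55, and Cidec fell by 1.10 ± 0.23. Erythroid markers, a sign of blood in the tissue, fell in 3 of 4 in T790M tumours, 1 of 4 in L858R+T790M tumours and 0 of 4 in L858R tumours. The L858R+T790M count was 0 without FVB normal 1, 3 or 4 or L858R+T790M tumour 1, 2 or 4, and 2 without L858R+T790M tumour 5.

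The level of each marker list, as its mean log2 value per array, ran as follows. Monocyte markers averaged 9.02 to 9.44 in L858R tumours and 9.21 to 9.65 in mixed-strain normals, and 8.42 to 10.04 in L858R+T790M tumours, 8.82 to 9.87 in T790M tumours and 9.29 to 10.28 in FVB normals. Erythroid markers averaged 6.41 to 7.68 in L858R tumours and 6.99 to 8.30 in mixed-strain normals, and 6.40 to 8.37, 6.17 to 7.16 and 7.22 to 8.34 in L858R+T790M tumours, T790M tumours and FVB normals. Airway secretory and glandular markers, named here beside Ltf, fell in 4 of 8 in L858R tumours, 4 of 8 in L858R+T790M tumours and 2 of 8 in T790M tumours (4 without T790M tumour 5; in L858R tumours 2 without L858R tumour 2 or 4 or mixed-strain normal 1, 2 or 4), and averaged 8.67 to 11.50 in T790M tumours against 10.82 to 11.68 in FVB normals. Squamous markers, named beside S100a8 and S100a9, averaged 6.60 to 7.22 in the other groups and 6.77 to 8.60 in FVB normals, with FVB normal 1 highest. Endothelial markers averaged 8.34 to 11.16 over the 14 tumours and 12.02 to 12.51 over the 10 normal lungs, and T790M tumour 1, the highest T790M tumour for S100a8, was also the tumour with the most endothelial signal.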

How the data were processed

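RNA of 24 mouse lung samples was measured on Affymetrix MOE 430 2.0 chips, 1 sample per chip. The authors deposited log2 values per probe set, for which the submitters' processing notes name RMA without a version or settings. No normalization was added.

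Of 45101 probe sets, the platform annotation ties 34945 to 1 gene, 932 to several and 9160 to no gene, and 64 are controls. Entrez identifiers gave current symbols for 34741; 204 retained older ones. The probe set of highest mean stood for each of 18193 genes. Titles and strain labels gave the groups. The limma 3.58.1 fit (R 4.3.3; lmFit with 5 groups and 19 residual degrees of freedom, then eBayes with trend) was two-sided, with Benjamini-Hochberg adjustment over all genes; a call is an adjusted p under 0.05. Exact permutation tests were computed with R 4.3.3, and the correlations of members (100000 resamples within groups) with Python 3.11.15. The number of arrays limits the precision. The fit was tested on simulated data.

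The members and the 19 gene lists (140 entries, 122 measured) were chosen with earlier results of these data known. Named were all members, list genes, and the 8 genes most like each of 2 member sets, clone names passed over. Alternatives changed the scaling, the probe set rule, the fit, the threshold and the arrays. List genes without a probe set annotated to them alone, among them Ly6g, Cebpe and Retnlg, were not analysed here.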

Additional observations from a re-analysis of the deposited data

Results flagged for a closer look

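Among 30 groups of 4 or 5 arrays (6 genes in 5 groups), 5 had a highest or lowest array that stood apart from the nearest other by more than Dixon's 95% criterion allows, and chance flags about 1 in 20 groups. S100a9 was at 11.36 in L858R tumour 1, against 7.44 in the next L858R tumour. Ngp was at 9.30 in L858R+T790M tumour 1, against 7.41 in the next. Ltf was at 7.71 in L858R+T790M tumour 3, below the next lowest at 8.80. Mixed-strain normal 2 was the lowest of its group for S100a8, at 9.81 against 10.85 in the next, and for S100a9, at 9.23 against 10.24. FVB normals 2 and 5 were not picked out in this way for any member. For S100a8, S100a9 and Csf3r each was the other's neighbour, so this rule could not pick out either.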

How the results depend on the processing

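The 5 calls in T790M tumours against FVB normals became 1 at an adjusted p under 0.01, 3 with each array centred on its median, 3 with array weights, 0 without FVB normals 2 and 5, and 1 without these and T790M tumour 1; they ranged from 3 to 5 when single arrays were left out, at 3 without FVB normal 1, 3 or 5 or T790M tumour 2, 3 or 4. In L858R tumours against mixed-strain normals the 0 calls became 1 in a fit of only the groups compared, 3 with all 10 normal lungs as 1 group, 1 without FVB normals 2 and 5 and 1 without these and T790M tumour 1, and ranged from 0 to 2 when single arrays were left out. L858R+T790M tumours against FVB normals had 0 to 1 calls when single arrays were left out and 1 without L858R+T790M tumours 1 and 5. Mixed-strain against FVB normals had 1 call with array weights, 2 in a fit of only these groups and 1 without L858R+T790M tumours 1 and 5. The leave-outs of several arrays were chosen after seeing the data. The shares of all genes called under these alternatives are not given here, so the counts cannot be set against them. With the replicate block, counts stayed at 5 in T790M tumours and 0 elsewhere; in none of the 5 comparisons checked were all same-numbered arrays correlated above 0.1, so the numbers were not taken as pairs. Their deviations correlated at -0.11 to 0.21 between T790M tumours and FVB normals, and at 0.0029 to 0.44 between L858R+T790M and T790M tumours, where 4 of 5 pairs were above 0.1.

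No sign turned in T790M tumours against FVB normals or against L858R+T790M tumours. With all 10 normals as 1 group, L858R tumours differed by -0.086 for Ngp and -0.074 for Camp, and L858R+T790M tumours by 0.10 for Camp, which was 0.034 with array weights. Leaving out single arrays moved the L858R+T790M difference from -0.22 to 0.32 for Ngp and from -0.16 to 0.005 for Camp. Without L858R+T790M tumours 1 and 5 it was -0.24 for Ngp, and without FVB normals 2 and 5, with or without T790M tumour 1, it was 0.14 for S100a8 and 0.0087 for Csf3r. Between the normals, Ltf ranged from -0.29 to 0.25 without single arrays, and without FVB normals 2 and 5, with or without T790M tumour 1, Ltf was 0.32 and Csf3r 0.15.

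L858R against L858R+T790M tumours, strain-adjusted, had no stable sign. Without single arrays it ranged from -1.63 to 0.046 for S100a8, -1.43 to 0.41 for S100a9, -0.30 to 0.30 for Csf3r, -0.13 to 0.42 for Ngp and -0.087 to 0.71 for Ltf. It was -0.15 for Csf3r and -0.39 for Ngp with array weights; -0.63 for Csf3r, -0.55 for Ngp and -0.18 for Camp as a direct difference. Without FVB normals 2 and 5, with or without T790M tumour 1, Csf3r was -0.78, Ngp was -0.097 and Ltf -0.15. Without L858R+T790M tumours 1 and 5, S100a8 was 0.64 and S100a9 0.84. L858R against T790M tumours was -0.054 for S100a8, -0.012 for S100a9 and -0.066 for Csf3r as a direct difference, and Csf3r was -0.21 without FVB normals 2 and 5 and -0.029 also without T790M tumour 1. Leaving out the 6064 dimmest genes left out Camp. The causes were not tested.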

Other observations

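Several genes of the fixed lists were high in 1 or a few arrays of a group. Olfm4, which encodes the granule protein olfactomedin 4, rose by 1.92 ± 0.71 in T790M tumours (limma adjusted p = 0.0356); it was at 6.34, 6.89, 9.54, 9.37 and 6.95 in T790M tumours 1 to 5, against 4.79, 7.63, 4.83, 4.89 and 7.35 in FVB normals 1 to 5, so that FVB normals 2 and 5 were again the high normals. T790M tumour 4, lowest of all arrays for S100a8, was among the highest for Olfm4. Padi4, which encodes the enzyme that citrullinates histones, was at 8.53 in T790M tumour 2 and at most 6.18 in every other array. Clec4e, the lectin receptor Mincle, was at 11.21 and 12.07 in L858R+T790M tumours 1 and 5, and Il6 at 7.56 and 9.30 in the same tumours, the arrays in which Cxcl2 was high.

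The platelet chemokine genes moved in opposite directions in tumours of the FVB label. In L858R+T790M tumours Ppbp fell by 2.78 ± 0.71 (limma adjusted p = 0.00375) and Pf4 rose by 1.34 ± 0.42 (adjusted p = 0.0155). This Pf4 call was lost without L858R+T790M tumour 2. In T790M tumours Ppbp fell by 3.15 ± 0.71 (limma adjusted p = 0.00123) and Pf4 rose by 2.04 ± 0.42 (adjusted p = 0.000535). In L858R tumours Ppbp fell by 3.53 ± 0.75 (limma adjusted p = 0.000687), and the difference for Pf4 was 0.12 ± 0.45 (adjusted p = 0.853).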
